A study of Homo sapiens with 12 samples.

Results

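The iRhoms RHBDF1 and RHBDF2, the sheddase ADAM17 and genes around them were followed in cultures of the human neuroblastoma cell line BE(2)-C that had received a plasmid with the transcription factor GRHL1 or an empty vector. The set holds 8 named genes: RHBDF1, RHBDF2, RHBDD1, RHBDL1, RHBDL3, ADAM17, ADAM10 and FRMD8. They were chosen because RHBDF1 was already known to respond strongly on these arrays, and the other genes were taken as its partners and relatives. All probes annotated to 1 of these symbols were used, 15 of the 47323 probes on the array, and they stood for 7 of the 8 genes. RHBDL1 had no annotated probe and was not analysed here. All 7 genes with a probe were among the 12323 genes tested.

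Cells received 2 µg of the GRHL1 plasmid (pTRex-GRHL1) or of the empty vector (pTRex-Dest30), and RNA was taken at 24, 48 and 72 h. Each plasmid had 2 arrays at each time, which gave 6 groups and 12 arrays. The line is 1 cell line, and the labels give neither the share of cells that took up the plasmid nor whether the replicates were separate cultures. The p-values therefore measure only the spread between these samples.

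iRhoms are rhomboid proteins of the endoplasmic reticulum and cell surface that have lost protease activity. They bind ADAM17, carry it out of the endoplasmic reticulum so that it can mature, and remain with it at the surface, where FRMD8 stabilises the complex. ADAM17 then cuts membrane proteins such as TNF and several ligands of the epidermal growth factor receptor (EGFR), while the related sheddase ADAM10 works with TspanC8 tetraspanins instead of iRhoms. GRHL1 is a grainyhead-like factor best known from epithelia.

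The bright GRHL1 probe averaged 11037, 5447 and 5713 units of normalized intensity at 24, 48 and 72 h in GRHL1 plasmid cells, against 110, 103 and 104 units in empty vector cells. The other GRHL1 probes stayed dim under both plasmids, with 119 to 134 units in GRHL1 plasmid cells against 117 to 131 units in empty vector cells at ILMN_1769934, and 95.8 to 106 units in GRHL1 plasmid cells against 102 to 123 units in empty vector cells at ILMN_1795767. Arrays detected 17950 to 19427 probes, and replicates of a group correlated across genes at 0.992. All 8 measured adrenergic neuroblastoma markers were detected on all 12 arrays, including PHOX2A, HAND2 and DBH. Epithelial markers were detected on all 12 arrays for 0 of 6 genes, and their summed intensity was 641 to 676 units in GRHL1 plasmid cells and 610 to 691 units in empty vector cells. CDH1, KRT5 and KRT14 were detected on no array, and the Schwann cell genes SOX10 and S100B on none either. Of 5 fibroblast genes, PDGFRB and DCN were detected on all 12 arrays, and of 4 leukocyte genes, CD14 and CD68 were. The fibroblast sum was 1647 to 2094 units in GRHL1 plasmid cells and 1837 to 2367 units in empty vector cells, and the leukocyte sum was 842 to 927 units in GRHL1 plasmid cells and 777 to 942 units in empty vector cells. The sample names of the scanner table conflicted with those of the normalized table on 7 of 12 columns, while the 4 arrays taken at 24 h were named alike in both. The normalized table's names were used, under which the bright GRHL1 probe was high on all 6 GRHL1 plasmid arrays and on no empty vector array.

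RHBDF1, the iRhom known as iRhom1, was above the detection limit on all 6 GRHL1 plasmid arrays and on 0 of 6 empty vector arrays. The limit was a normalized intensity of 128, below which 95% of undetected probes lay. RHBDF1 (probe ILMN_1808404) had 285 and 329 units at 24 h in GRHL1 plasmid cells, against 116 and 110 units in empty vector cells. At 48 h it had 412 and 350 units in GRHL1 plasmid cells, against 111 and 112 units in empty vector cells. At 72 h it had 306 and 271 units in GRHL1 plasmid cells, against 97.6 and 101 units in empty vector cells. All 6 GRHL1 plasmid arrays therefore lay above all 6 empty vector arrays, and the groups did not overlap at any time. This separation is what chose the gene, so it is a description with no test. Over all genes tested, 1.43% had all 6 GRHL1 plasmid arrays above all 6 empty vector arrays, and 2.14% had no empty vector array above the limit.

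Because RHBDF1 was not well above background in empty vector cells, only a lower bound of its fold can be given. RHBDF1 was at least 2.51-fold higher in GRHL1 plasmid cells over the 3 times, with bounds of 2.38-fold at 24 h, 2.96-fold at 48 h and 2.24-fold at 72 h. These bounds set the geometric mean in GRHL1 plasmid cells against the limit. The fitted log2 difference of background-corrected intensity was 2.65 (SE 0.08, n = 6 each), but it rests on the offset added to dim signals. It was 1.95 with an offset of 50 in place of 16 and 1.58 without background correction. Under the scanner table's own sample names, without background correction, RHBDF1 differed by 1.45 at 24 h, -0.92 at 48 h and -0.49 at 72 h. Since these are whole-culture RNA samples, a few cells with much RHBDF1 and many cells with some cannot be told apart.

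Within GRHL1 plasmid cells, RHBDF1 had its highest mean at 48 h and its lowest at 72 h. The means were 307 ± 31.2, 381 ± 43.6 and 288 ± 24.5 units at 24, 48 and 72 h (SD, n = 2 each). The 48 h arrays lay above those of the other times, while the 24 h and 72 h arrays overlapped. The log2 change was 0.38 between 48 h and 24 h (limma adjusted p = 0.419) and -0.11 between 72 h and 24 h (adjusted p = 0.834), and neither passed the threshold of 0.05. GRHL1 itself had its highest mean at 24 h. Under the empty vector all 6 values were below the limit, so their differences with time have no fold.

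The stretches just before the start sites of both iRhom genes are printed because one of these genes stood apart between the plasmids and the other did not. They are the 250 bases before 1 start site of each gene in a table of RefSeq promoters (GRCh38.p14, minus strand), at chr16:72632-72881 for RHBDF1 and chr17:76501424-76501673 for RHBDF2, with CG pairs in capitals. The RHBDF1 start is the only one in that table but lies inside the gene as RefSeq annotates it, whose outermost start is further upstream. RHBDF2 has a second start in the table a few bases away, and its stretch is not printed.
RHBDF1: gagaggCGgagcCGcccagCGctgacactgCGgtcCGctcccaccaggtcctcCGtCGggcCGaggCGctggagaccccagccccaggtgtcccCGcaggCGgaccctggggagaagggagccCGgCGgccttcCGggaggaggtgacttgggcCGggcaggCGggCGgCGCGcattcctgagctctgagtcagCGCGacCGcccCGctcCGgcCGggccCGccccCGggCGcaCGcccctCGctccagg
RHBDF2: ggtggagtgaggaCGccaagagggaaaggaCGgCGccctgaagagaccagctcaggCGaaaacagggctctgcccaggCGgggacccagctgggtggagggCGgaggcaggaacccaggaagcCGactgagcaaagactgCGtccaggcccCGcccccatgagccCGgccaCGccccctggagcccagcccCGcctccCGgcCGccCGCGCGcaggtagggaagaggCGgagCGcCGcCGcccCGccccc
The RHBDF1 stretch held 30 CG pairs and 78.0% G and C, and the RHBDF2 stretch held 22 CG pairs and 74.0% G and C. The grainyhead-type motif AACCNGTT, read on both strands (AACNGGTT on the other), was searched in windows running from 250 bases before to 50 bases after each start, as RefSeq gives them. It was present in 606 of 35116 such windows, or 1.73%. It was found in 0 of 9 windows of the 7 set genes in the promoter table (RHBDL3 had no entry). No match says only that these letters are not in this window.

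RHBDF2, the second iRhom, known as iRhom2 and best described in immune cells and skin, did not pass the test. RHBDF2 (probe ILMN_1691717) had 279 and 300 units at 24 h in GRHL1 plasmid cells, against 295 and 291 units in empty vector cells. At 48 h it had 312 and 322 units in GRHL1 plasmid cells, against 293 and 280 units in empty vector cells. At 72 h it had 243 and 278 units in GRHL1 plasmid cells, against 280 and 291 units in empty vector cells. The plasmids overlapped at 24 h, the GRHL1 plasmid arrays were higher at 48 h, and they were lower at 72 h. Neither difference was called (limma adjusted p = 0.717 at 48 h and 0.817 at 72 h). Averaged over the times the log2 difference was -0.01, with a 95% interval from -0.15 to 0.13 (limma adjusted p = 0.986). As a fold of background-corrected intensity that interval runs from 0.902 to 1.10. The bound of 2.51 given for RHBDF1 rests on uncorrected intensity and is not on this scale.

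ADAM17, the sheddase that iRhoms carry, did not pass the test either. ADAM17 (probe ILMN_2121068) had 402 and 453 units at 24 h in GRHL1 plasmid cells, against 358 and 406 units in empty vector cells. At 48 h it had 397 and 350 units in GRHL1 plasmid cells, against 351 and 436 units in empty vector cells. At 72 h it had 344 and 376 units in GRHL1 plasmid cells, against 365 and 388 units in empty vector cells. The plasmids overlapped at every time, and the 2 empty vector arrays at 48 h were further apart than any plasmid difference of means. The mean log2 difference was 0.01 (95% interval -0.19 to 0.21, adjusted p = 0.984), or 0.879-fold to 1.16-fold.

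FRMD8, the FERM-domain protein that holds the iRhom and ADAM17 complex at the cell surface, had its largest plasmid differences at 24 and 48 h, in opposite directions. FRMD8 (probe ILMN_3241870) had 328 and 305 units at 24 h in GRHL1 plasmid cells, against 353 and 351 units in empty vector cells. At 48 h it had 369 and 364 units in GRHL1 plasmid cells, against 335 and 323 units in empty vector cells. At 72 h it had 314 and 351 units in GRHL1 plasmid cells, against 321 and 311 units in empty vector cells. GRHL1 plasmid arrays were lower at 24 h and higher at 48 h without overlap, and the plasmids overlapped at 72 h. Limma called FRMD8 neither at 24 h (adjusted p = 0.670) nor at 48 h (adjusted p = 0.672). The mean log2 difference was 0.03 (95% interval -0.10 to 0.16, adjusted p = 0.906).

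ADAM10, the sheddase that does not depend on iRhoms, gave a mean log2 difference of -0.05 (95% interval -0.21 to 0.11, adjusted p = 0.851). ADAM10 (probe ILMN_1718946) had 278 and 331 units at 24 h in GRHL1 plasmid cells, against 306 and 334 units in empty vector cells. At 48 h it had 338 and 326 units in GRHL1 plasmid cells, against 297 and 307 units in empty vector cells. It had 308 and 324 units at 72 h in GRHL1 plasmid cells, against 345 and 369 units in empty vector cells. The plasmids overlapped at 24 h, GRHL1 plasmid arrays were higher at 48 h and lower at 72 h. ADAM10 was called neither at 48 h (limma adjusted p = 0.780) nor at 72 h (adjusted p = 0.777).

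The remaining members are rhomboids outside the iRhom pair. RHBDD1, also called RHBDL4, is a rhomboid protease of the endoplasmic reticulum, and RHBDL3 is a rhomboid-like gene expressed mainly in nervous tissue. RHBDD1 (probe ILMN_1681543) had 331 and 351 units at 24 h, 371 and 304 units at 48 h, and 322 and 323 units at 72 h in GRHL1 plasmid cells. In empty vector cells RHBDD1 had 312 and 340 units at 24 h, 344 and 346 units at 48 h, and 336 and 318 units at 72 h. The plasmids overlapped at every time, and the mean log2 difference was 0.00 (95% interval -0.16 to 0.17, adjusted p = 0.996). RHBDL3 (probe ILMN_1716019) had 398 and 379 units at 24 h, 368 and 408 units at 48 h, and 343 and 341 units at 72 h in GRHL1 plasmid cells. RHBDL3 in empty vector cells had 358 and 354 units at 24 h, 316 and 352 units at 48 h, and 379 and 398 units at 72 h. GRHL1 plasmid arrays were higher at 24 and 48 h and lower at 72 h, without overlap. Limma called RHBDL3 at no single time (adjusted p = 0.752 at 24 h, 0.536 at 48 h and 0.687 at 72 h). The mean log2 difference of RHBDL3 was 0.06 (95% interval -0.07 to 0.20, adjusted p = 0.757).

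**Figure D1:**
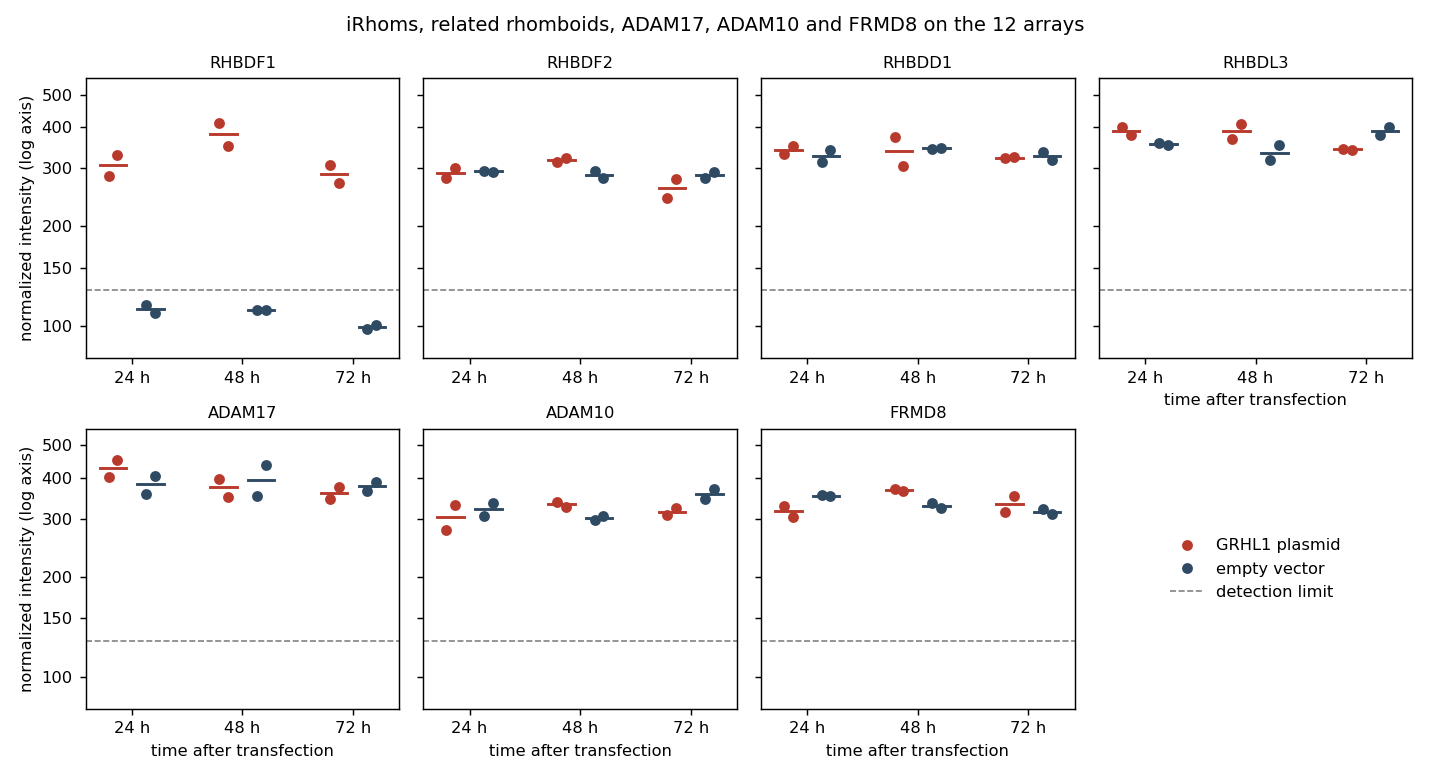
Normalized intensity (log axis) of the gene's main probe on each of the 12 arrays, at 24, 48 and 72 h. Points are arrays, short lines are means of 2 arrays, and the dashed line is the detection limit of 128 units. RHBDF1 was above the limit on the 6 GRHL1 plasmid arrays and below it on the 6 empty vector arrays, and the other 6 genes were above it on all 12.

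Together, limma called 0 of the 6 partners in the mean comparison, against 1.71% of all genes tested, and 0 of 6 had an unadjusted p under 0.05, against 12.2% of all genes. Their 95% intervals lay between -0.21 (the lower end of ADAM10) and 0.21 (the upper end of ADAM17) on the log2 scale, or between 0.863-fold and 1.16-fold. At single times limma again called 0 of 6 partners, where 0.381% of all genes were called at 24 h, 0.446% at 48 h and 0.325% at 72 h. Counts of 0 of 6 are close to these background shares and are not a result about the partners. At an unadjusted p under 0.05 the partners held 0 of 6 at 24 h (8.77% of all genes), 1 of 6 at 48 h (8.3%) and 0 of 6 at 72 h (7.45%). That 1 was RHBDL3 at 48 h, with a log2 difference of 0.26 (95% interval 0.02 to 0.49, unadjusted p = 0.0336, adjusted p = 0.536). Intervals at single times were wider and reached 0.706-fold and 1.46-fold at their ends.

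**Figure D2:**
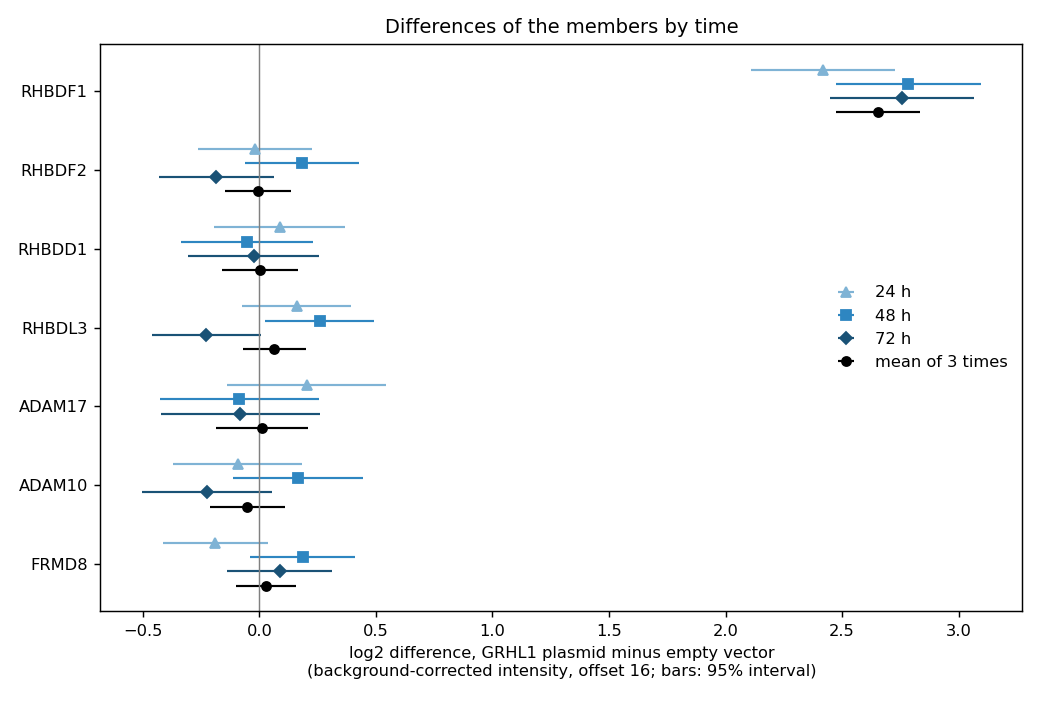
Log2 difference of background-corrected intensity, GRHL1 plasmid minus empty vector, with 95% intervals, for each gene at 24, 48 and 72 h and over the 3 times. RHBDF1 lies between 2.42 and 2.78 at the single times, and the mean differences of the other 6 genes lie between -0.05 and 0.06.

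None of the partners passed the test between times under either plasmid. In GRHL1 plasmid cells, 0 of 6 partners were called between 48 h and 24 h (0.0974% of all genes) and 0 of 6 between 72 h and 24 h (0.211% of all genes). At an unadjusted p under 0.05 there was 1 of 6 between 48 h and 24 h (9.84% of all genes) and 0 of 6 between 72 h and 24 h (10.9%). That 1 was FRMD8, with a log2 change of 0.26 between 48 h and 24 h (unadjusted p = 0.0278, adjusted p = 0.455). Under the empty vector, limma called 0 of 6 partners between 48 h and 24 h (0.00811% of all genes) and 0 of 6 between 72 h and 24 h (0.0568% of all genes), and 0 had an unadjusted p under 0.05 (10% and 10.7% of all genes). Among these changes ADAM10 had the widest, 0.20 between 72 h and 24 h (adjusted p = 0.602).

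The direction of the plasmid difference changed between times without overlap for RHBDF2, RHBDL3, ADAM10 and FRMD8, 4 of 6 partners, against 11.5% of all genes tested. For RHBDF2, RHBDL3 and ADAM10, 3 of 6 partners, GRHL1 plasmid arrays were above empty vector arrays at 48 h and below them at 72 h, against 2.14% of all genes. This pattern was counted after its values were seen. The F test of a change of the difference with time called 0 of 6 partners (0.00811% of all genes called), and 1 of 6, RHBDL3, had an unadjusted p under 0.05 (0.0197, adjusted p = 0.838), against 5.4% of all genes. Over all genes the median difference was -0.03 at 48 h and -0.01 at 72 h.

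Of the genes with that pattern, only RHBDF2 and ADAM10 had other probes that were detected, and RHBDL3 had no other probe. Those other probes did not carry the whole pattern through, although some were again higher at 48 h. RHBDF2 had 3 further probes. At ILMN_2373062 the GRHL1 plasmid arrays were higher at 48 h (209 and 204 units, against 184 and 199 units in empty vector cells), and the plasmids overlapped at 24 and 72 h. At ILMN_1735792 they were higher at 24 h (192 and 192 units, against 163 and 170 units in empty vector cells), and the plasmids overlapped at 48 and 72 h. The second ADAM10 probe, detected on 9 of 12 arrays, was lower in GRHL1 plasmid cells at 24 h and higher at 48 and 72 h. The second RHBDD1 probe, ILMN_2209766, was higher at 48 h and lower at 72 h, although the main RHBDD1 probe overlapped at both. Of the 8 further probes of the set, limma called 0 in the mean comparison, against 0.194% of all probes on the array, and 0 had an unadjusted p under 0.05. The 5 of them detected on all 12 arrays had mean log2 differences from -0.11, for an ADAM17 probe, to 0.07, for another ADAM17 probe. The RHBDF2 probe ILMN_2275126 and the second FRMD8 probe were detected on no array, and no fold is given for them. RHBDF1 had a single probe, so its difference could not be repeated with another.

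**Figure D3:**
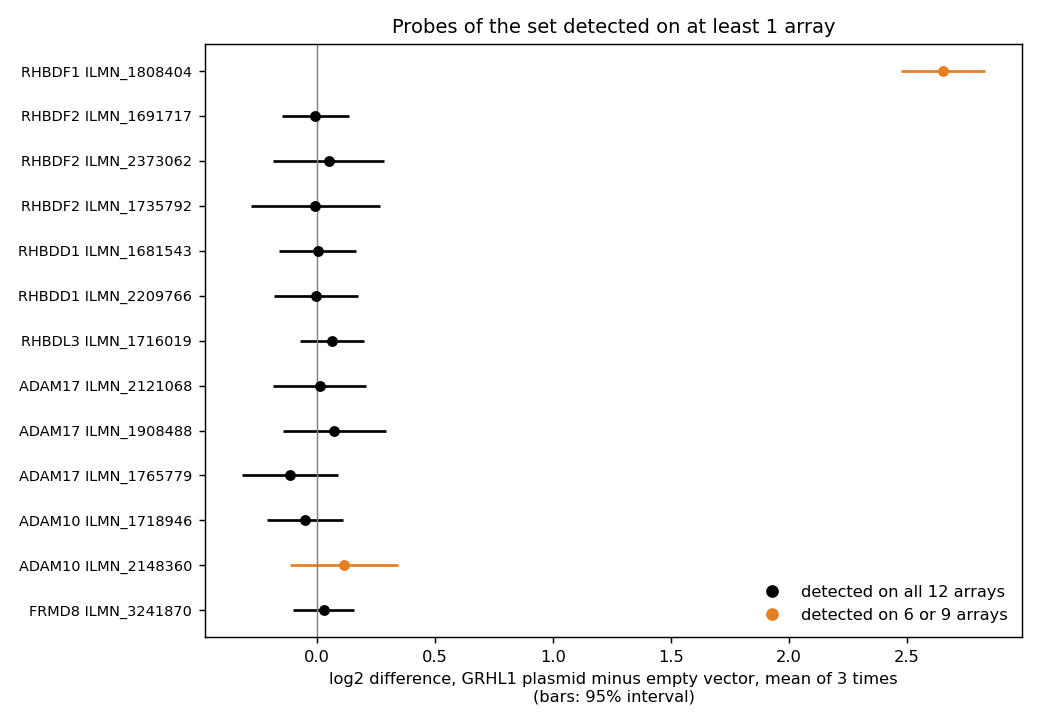
Log2 difference, GRHL1 plasmid minus empty vector, over the 3 times, with 95% intervals, for the 13 probes of the set detected on at least 1 array. The colour marks probes detected on all 12 arrays or on fewer, and the intervals of all but the RHBDF1 probe hold 0.

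The wider pathway was described with lists of rhomboid relatives, ADAM17 regulators, substrates, receptors and tetraspanins, 115 genes beyond the members. Of these, 106 were on the array and 61 were tested. In the mean comparison 5 were called higher and 1 lower, beside 1.53% and 0.179% of all genes. The median log2 difference of the 61 was 0.00 beside -0.01 over all genes tested. The lists were chosen with earlier results of these data known, so these shares are a description with no test. The genes called were PRKCD, ERBB3, NRG3, SDC4 and TSPAN33, which were higher, and CX3CL1, which was lower. Leaving out any 1 of the 6 GRHL1 plasmid arrays, empty vector replicate 1 at 24 or 48 h or empty vector replicate 2 at 72 h lowered the count of 6 to 2 or 3. PRKCD and ERBB3 were called without each of the 12 arrays in turn. CX3CL1 was lost in 11 of those 12 fits, NRG3 in 9, SDC4 in 8 and TSPAN33 in 7. Under the scanner table's own names 0 of the 6 were called.

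ERBB3, a receptor for neuregulins that pairs with other members of its family, rose. ERBB3 had 186 and 184 units at 24 h, 176 and 176 units at 48 h, and 176 and 176 units at 72 h in GRHL1 plasmid cells. The empty vector arrays of ERBB3 had 125 and 140 units at 24 h, 121 and 124 units at 48 h, and 126 and 142 units at 72 h. All GRHL1 plasmid arrays lay above all empty vector arrays, as in 1.43% of all genes tested. Of the empty vector arrays, 2 were above the limit. The mean log2 difference was 0.84 ± 0.08 (SE, n = 6 each, adjusted p = 0.00044), against 0.59 with an offset of 50 and 0.47 without background correction. With 4 of 6 empty vector arrays below the limit its size rests on the offset. The calls at 24 h (0.88, adjusted p = 0.0312) and 48 h (0.95, adjusted p = 0.0167) were past the threshold. At 48 h, where both empty vector arrays were below the limit, ERBB3 was at least 1.37-fold higher. In the fit over all probes another ERBB3 probe, detected on 6 of 12 arrays, differed by 0.45 (unadjusted p = 0.0051, adjusted p = 0.416). A further ERBB3 probe was detected on no array. EGFR, the receptor of HBEGF, differed by 0.03 (adjusted p = 0.893), and it was the other 1 of 2 receptor genes tested.

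PRKCD, a protein kinase C that can stimulate shedding, was called higher as well. PRKCD had 161 and 168 units at 24 h, 140 and 144 units at 48 h, and 125 and 132 units at 72 h in GRHL1 plasmid cells. In empty vector cells PRKCD had 104 and 107 units at 24 h, 119 and 106 units at 48 h, and 110 and 101 units at 72 h, all below the limit. The GRHL1 plasmid arrays lay above all empty vector arrays, as in 1.43% of all genes tested, and 5 of 6 were above the limit. PRKCD was at least 1.12-fold higher over the 3 times (adjusted p = 0.000584) and at least 1.28-fold higher at 24 h (adjusted p = 0.00594). The p-values come from the fitted differences and not from these bounds, and without a detection filter the mean difference had an adjusted p of 0.00317. A second PRKCD probe was detected on no array. Fitted to the 24 h arrays alone, which both tables name alike, the PRKCD and ERBB3 differences had adjusted p of 0.0549 and 0.302, so these calls rest on the spread of all 12 arrays. PRKCD was the 1 gene called among 19 tested regulators of ADAM17, beside 1.71% of all genes tested. Of the 19, 3 had an unadjusted p under 0.05, where 12.2% of all genes did. The count of 3 is close to that share, and the count of 1 is a single gene. FURIN, the convertase that removes the ADAM17 prodomain, differed by 0.52 (adjusted p = 0.062), with GRHL1 plasmid arrays higher without overlap at 24 and 48 h and overlapping at 72 h. Only 2 of 6 empty vector arrays of FURIN were above the limit, so the size of 0.52 rests on the offset. At 48 h, where 0 of 2 were above it, the bound for FURIN was 1.24-fold. The difference at 48 h was not called (limma adjusted p = 0.332).

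Among the EGFR family ligands, 1 of 5 tested genes was called, beside 1.71% of all genes tested. Only that 1 of 5 had an unadjusted p under 0.05, beside 12.2% of all genes. The median log2 difference of the 5 was 0.09. NRG3, a neuregulin found mainly in nervous tissue, had 153 and 188 units at 24 h, 177 and 197 units at 48 h, and 217 and 270 units at 72 h in GRHL1 plasmid cells. Empty vector cells had NRG3 at 175 and 155 units at 24 h, 143 and 142 units at 48 h, and 156 and 136 units at 72 h. The plasmids overlapped at 24 h and separated at 48 and 72 h, with log2 differences of 0.08, 0.65 and 1.14. The F test did not call a change of this difference with time (unadjusted p = 0.016, adjusted p = 0.838). An unadjusted p under 0.05 in that test was held by 5.4% of all genes. The mean was 0.62 ± 0.12 (SE, n = 6 each, adjusted p = 0.034), and no single time was called. HBEGF, a ligand that ADAM17 releases, differed by 0.18 (adjusted p = 0.433).

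Among 11 tested substrates of ADAM17 other than those ligands, 1 was called higher and 1 lower, beside 1.53% and 0.179% of all genes tested. Only these 2 of 11 had an unadjusted p under 0.05, a share close to the 12.2% of all genes. The median log2 difference of the 11 was -0.02. SDC4, a heparan sulfate proteoglycan of the cell surface, had 206 and 205 units at 24 h, 160 and 173 units at 48 h, and 170 and 156 units at 72 h in GRHL1 plasmid cells. In empty vector cells SDC4 had 124 and 147 units at 24 h, 140 and 115 units at 48 h, and 146 and 121 units at 72 h. The GRHL1 plasmid arrays lay above all empty vector arrays, as in 1.43% of all genes tested. Of the empty vector arrays, 3 of 6 were above the limit. The mean log2 difference was 0.78 ± 0.14 (SE, n = 6 each, adjusted p = 0.0219), against 0.55 with an offset of 50 and 0.43 without background correction, so its size rests on the offset too. CX3CL1, a membrane-bound chemokine that sheddases release, had 542 and 512 units at 24 h, 477 and 516 units at 48 h, and 464 and 497 units at 72 h in GRHL1 plasmid cells. CX3CL1 in empty vector cells had 736 and 620 units at 24 h, 544 and 584 units at 48 h, and 678 and 593 units at 72 h. The GRHL1 plasmid arrays lay below all empty vector arrays, as in 0.341% of all genes tested, and the mean log2 difference was -0.36 ± 0.07 (SE, n = 6 each, adjusted p = 0.0398).

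On the ADAM10 side, 1 of 5 tested TspanC8 tetraspanins, which carry ADAM10 to the surface, was called, and 3 of 5 had an unadjusted p under 0.05, beside 1.71% and 12.2% of all genes. Their median log2 difference was 0.17. TSPAN33 had 298 and 288 units at 24 h, 312 and 323 units at 48 h, and 296 and 283 units at 72 h in GRHL1 plasmid cells. With the empty vector TSPAN33 had 230 and 240 units at 24 h, 269 and 276 units at 48 h, and 266 and 254 units at 72 h. All GRHL1 plasmid arrays lay above all empty vector arrays, as in 1.43% of all genes tested. The mean log2 difference of TSPAN33 was 0.31 ± 0.05 (SE, n = 6 each, adjusted p = 0.0194). TSPAN14, another of these tetraspanins, differed by 0.30 (adjusted p = 0.187). Of 8 tested ADAM10 substrates limma called 0, and 0 had an unadjusted p under 0.05, with a median of -0.06, APP at -0.15 and APLP2 at -0.08. These are the main probes. In the fit over all probes another APP probe, ILMN_1653283, detected on 12 of 12 arrays, differed by -0.30 (unadjusted p = 0.0147, adjusted p = 0.532), and a further one by -0.09 (adjusted p = 0.889). Limma called 0 of 3 other catalytic ADAMs, also with 0 unadjusted p under 0.05, a median of 0.08, ADAM12 at 0.28 and ADAM15 at 0.08. Of 8 other rhomboid superfamily genes limma called 0 and 1 had an unadjusted p under 0.05, which was UBAC2 at 0.16 (adjusted p = 0.256), while TMEM115 was at -0.12 and the median was 0.04.

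**Figure D4:**
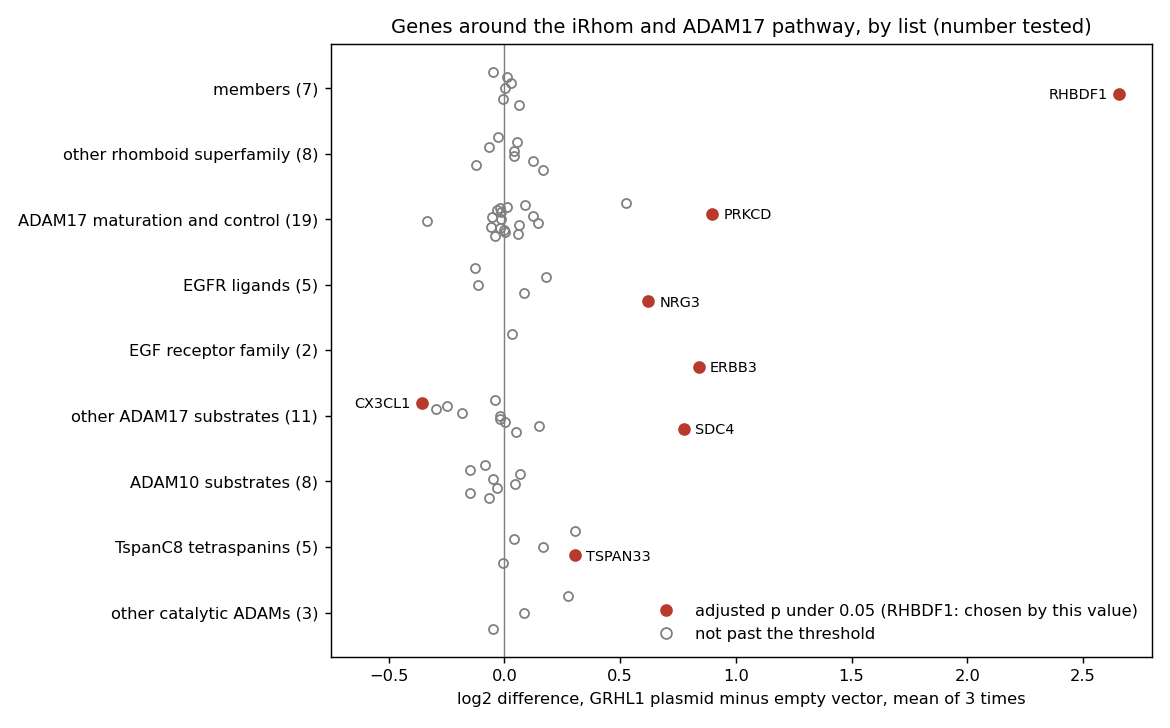
Log2 difference, GRHL1 plasmid minus empty vector, over the 3 times, for the tested genes of each list. Filled points passed an adjusted p of 0.05, which 5 pathway genes did as higher and CX3CL1 as lower, and RHBDF1 stands apart because it was chosen by this value.

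**Figure D5:**
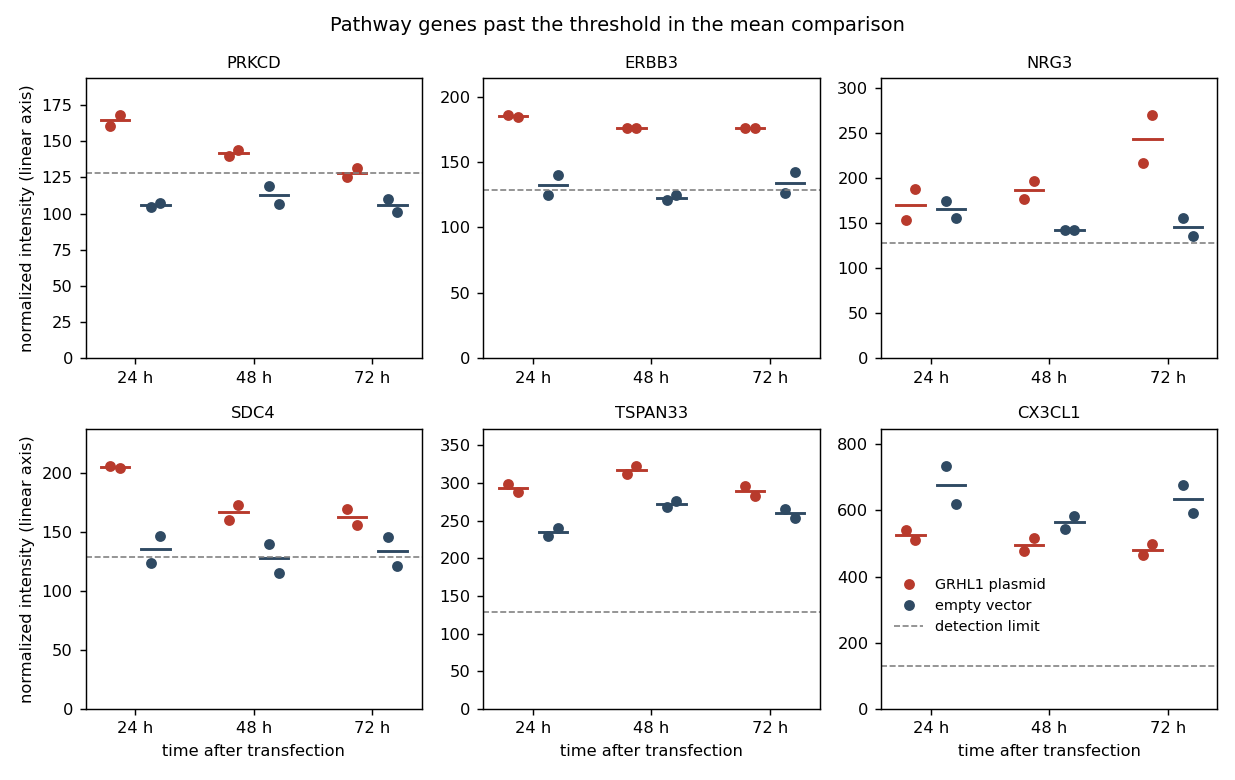
Normalized intensity (linear axis from 0) of the 6 called pathway genes on the 12 arrays at 24, 48 and 72 h, with short lines for means of 2 arrays and the detection limit dashed. PRKCD, ERBB3 and SDC4 sit close to the limit in empty vector cells, and the NRG3 arrays of the plasmids overlap at 24 h.

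The genes whose log2 intensity was most like that of RHBDF1 over the 12 arrays, apart from GRHL1, were SLC44A2 (Pearson r 0.980), NHERF1 (0.970), JUP (0.968), CEBPA (0.965) and EFHD1 (0.961). Arrays fall into 2 plasmid groups, and that split alone gives a high r to any gene that differs between them. Within the 6 GRHL1 plasmid arrays r was 0.75 for SLC44A2, 0.38 for NHERF1, 0.85 for JUP, -0.17 for CEBPA and 0.39 for EFHD1. Within the 6 empty vector arrays, where RHBDF1 was below the limit, r ran from -0.62 for JUP to 0.59 for CEBPA. These values describe the arrays and carry no p.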

How the data were processed

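Total RNA of BE(2)-C cells was labelled with biotin and hybridised to Illumina BeadChips (12 arrays), per the labels' protocols. The authors deposited a scanner table and a normalized table of linear intensity values, and the scanner table also a detection p-value of every probe, per the file headers. The method of their normalization is not given in the sources. Array medians were 119.7 to 121 units in the normalized table. The precision is limited by the number of arrays.

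The normalized intensities were background-corrected with limma's normexp (offset 16), put on the log2 scale and fitted with limma 3.58.1 in R 4.3.3 (a mean for each of 6 groups, 6 residual and 3.72 prior degrees of freedom), with Benjamini-Hochberg adjustment over all 12323 genes. A fold change on this scale depends on the offset. A probe counted as detected with p under 0.01 and a scanner intensity above the array's background level. That level was 97.8 to 117 in scanner intensity, which is not the normalized scale of the limit. It was required because dimmer probes also had low p, and neqc was therefore not used. A gene entered the fit through its brightest probe among those that name 1 gene and were detected on at least 2 arrays. For a probe below the limit on all arrays of a group the fold is a bound against that limit. For the further probes the same fit ran over all probes. The script was tested on simulated data. Figures used matplotlib 3.10.9 and tables pandas 2.3.3, under Python 3.11.15.

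Sample titles gave the groups and the replicate numbers. The numbers are shared between the plasmids, but the deviations of same-numbered arrays from their group means correlated at 0.115, 0.017 and 0.030 at 24, 48 and 72 h, so they were not taken as pairs. The members, the gene lists and the tests were chosen with earlier results of these data known. Named were all members, in each list the genes called in the mean comparison or at a single time, or the 2 with the smallest p where fewer than 2 were called, and the 5 genes most like RHBDF1. Alternatives covered the background correction, offset, quantile scaling, detection filter, choice of probe, variance model, replicate block, each array left out and the scanner table under its own names. The fit to the 24 h arrays alone and the counts of genes whose direction changed between times were added after seeing the data.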

Additional observations from a re-analysis of the deposited data

Results flagged for a closer look

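For 4 of 6 partners the difference between GRHL1 plasmid and empty vector arrays ran in opposite directions at different times, without overlap. Such opposite directions were seen in 11.5% of all genes tested, and the pattern was counted after its values were seen. RHBDF2 was higher in GRHL1 plasmid cells at 48 h and lower at 72 h, and its change with time had an adjusted p of 0.965 (limma F test). RHBDL3 was higher at 24 and 48 h and lower at 72 h (adjusted p = 0.838). ADAM10 was higher at 48 h and lower at 72 h (adjusted p = 0.986). FRMD8 was lower at 24 h and higher at 48 h (adjusted p = 0.917). None of the 4 changes with time passed the threshold, and the further probes of RHBDF2 and ADAM10 did not repeat the order of directions.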

How the results depend on the processing

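The 6 partners of RHBDF1 were called 0 times under every alternative that kept 2 arrays in each group. In the main fit 1.71% of all genes were called in the mean comparison. Counts of 0 of 6 are close to that share and are not a result about the partners. Their mean differences were small enough for the sign to turn when an array was left out, as for RHBDF2 (-0.05 to 0.04), RHBDD1 (-0.06 to 0.06), ADAM17 (-0.05 to 0.07), ADAM10 (-0.11 to 0.00) and FRMD8 (-0.01 to 0.06), while RHBDL3 kept its sign (0.03 to 0.10). RHBDF1, chosen by this difference, had values from 1.58 to 2.66 over the settings other than the scanner table's names and from 2.61 to 2.70 with an array left out, as a description only. The count of 211 genes called in the mean comparison was 345 without background correction, 109 without a detection filter, 392 with a variance trend and robust estimates, and 128 to 185 with an array left out. The count of 6 pathway genes was 2 without a detection filter, 3 with all detected probes tested, and 2 to 6 with an array left out. With the replicate number as a block it was 2 (ERBB3 and PRKCD), and 0 of 6 partners were called. With the scanner table under its own sample names 0 genes were called in all and 0 pathway genes, and RHBDF1 differed by 1.45 at 24 h, -0.92 at 48 h and -0.49 at 72 h, and NRG3 by -0.26. Apart from that table the cause of these moves was not tested. That alternative assigns 7 of 12 columns to other samples, so its 48 h and 72 h values compare mixed groups by the other table's names.

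With 2 arrays a group, intervals of the partners at single times reach 0.706-fold and 1.46-fold. These ends are not the smallest difference that a test at a single time could call. NRG3 at 72 h, for example, had a log2 difference of 1.14 and was not called (limma adjusted p = 0.0677). RHBDF1 in empty vector cells has only an upper limit, so the size of its difference has a lower bound and no upper one. The arrays do not measure protein, ADAM17 maturation or shedding.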
